A study of Homo sapiens with 30 samples.

Results

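The nuclear-encoded subunits of the oxidative phosphorylation complexes were followed in a human T cell line over 36 h of activation, with and without an edit in SLAMF6. Members were chosen by gene symbol: NDUFA, NDUFB, NDUFC, NDUFS or NDUFV followed by a digit, the 4 SDH genes, and symbols starting with UQCR, COX4 to COX8 or ATP5. Of 54300 symbols in the count files 200 matched, and 115 were left out because their names end in P, or in P and digits (113, the form used for pseudogenes), or hold a hyphen or dot (2). The 85 members comprised 38 symbols of complex I, 4 of complex II, 8 of complex III, 17 of complex IV and 18 of complex V. The symbol rule also took in ATP5S and ATP5SL, named DMAC2L and DMAC2 in RefSeq. They are not core subunits of ATP synthase but are counted here with complex V. Also taken in were NDUFA4, which is now placed in complex IV but is counted here with complex I, and COX7A2L, a factor that joins complexes III and IV into supercomplexes.

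Oxidative phosphorylation takes place in the inner mitochondrial membrane, where complexes I and II feed electrons from NADH and succinate to coenzyme Q, complex III passes them on to cytochrome c and complex IV to oxygen. Complexes I, III and IV pump protons out of the matrix, and complex V, the ATP synthase, uses the returning protons to make ATP. All subunits of complex II and most of the other complexes' subunits are encoded in the nucleus, while the mitochondrial genome encodes the remaining catalytic core subunits. T cells that are activated through their receptor are known to raise glycolysis and also to enlarge their mitochondrial activity.

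The cells were Jurkat E6-1, an established line from a human T cell leukaemia. Wild-type cells (WT) were compared with cells labelled as a knockout of SLAMF6 isoform 1 (KO), which the protocol describes as SLAMF6 Δ17-65. The series title speaks instead of overexpression of isoform-3, so what separates KO from WT is known only as far as the sample labels give it. SLAMF6 is a surface receptor of lymphocytes. Each genotype was sampled unstimulated (0) and after stimulation for 6, 12, 24 and 36, taken here as hours because the labels give no unit, with PMA at 200 ng/ml and ionomycin at 300 ng/ml. PMA activates protein kinase C and ionomycin lets calcium into the cell, which bypasses the T cell receptor. The 10 groups held 3 libraries each. Labels do not give the number of edited clones or say whether libraries came from separate cultures, so the p-values below measure only the spread between these libraries.

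Promoters of 6 members whose results are described below are shown because they differ in which of the transcription factor motifs common in genes of this pathway they hold. RefSeq promoter windows on GRCh38.p14, from 250 bases before to 50 bases after the annotated start, were held for 69 of the 85 members. Searched on both strands were the NRF1 motif GCGCANGCG, the ETS motif CCGGAAG (bound by GABP among others) and the YY1 motif AAGATGGCG. The NRF1 letters stood in 20 members' windows (29%) against 8.06% of 27305 windows in all, the ETS letters in 18 (26.1%) against 10.7%, and the YY1 letters in 9 (13%) against 1.88%. At least 1 of the motifs stood in 38 members' windows (55.1%), in 18.4% of all windows and in 29.5% of the 11600 windows of symbols tested below. In these 11600 windows the NRF1, ETS and YY1 letters stood in 13.2%, 16.9% and 3.48%. Among the tested members' windows the shares were 28.8%, 27.3% and 13.6%. A match describes the letters and is no evidence of binding. The 170 bases before each start are printed 5′ to 3′ on the gene's strand, with motif matches in capitals.
SDHA, chr5:218150-218319, plus strand: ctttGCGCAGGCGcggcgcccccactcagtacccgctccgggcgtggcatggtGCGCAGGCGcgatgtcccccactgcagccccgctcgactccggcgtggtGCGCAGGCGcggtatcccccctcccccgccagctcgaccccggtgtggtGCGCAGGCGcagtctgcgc
SDHB, chr1:17054033-17054202, minus strand: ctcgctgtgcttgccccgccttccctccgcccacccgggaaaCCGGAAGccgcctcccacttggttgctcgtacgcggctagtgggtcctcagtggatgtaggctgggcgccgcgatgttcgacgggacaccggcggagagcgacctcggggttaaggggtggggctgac
SDHD, chr11:112086703-112086872, plus strand: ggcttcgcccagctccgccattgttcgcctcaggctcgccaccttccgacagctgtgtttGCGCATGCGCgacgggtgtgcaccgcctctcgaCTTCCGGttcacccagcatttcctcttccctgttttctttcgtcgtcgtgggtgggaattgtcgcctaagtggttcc
UQCRC1, chr3:48609647-48609816, minus strand: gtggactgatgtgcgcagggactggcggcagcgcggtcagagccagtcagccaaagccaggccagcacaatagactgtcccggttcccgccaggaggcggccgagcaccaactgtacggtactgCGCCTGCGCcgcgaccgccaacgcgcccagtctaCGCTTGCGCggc
UQCRC2, chr16:21953191-21953360, plus strand: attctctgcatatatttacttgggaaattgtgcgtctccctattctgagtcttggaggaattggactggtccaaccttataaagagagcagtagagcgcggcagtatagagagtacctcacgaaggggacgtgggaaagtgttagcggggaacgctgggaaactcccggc
ATP5G1, chr17:48892617-48892786, plus strand: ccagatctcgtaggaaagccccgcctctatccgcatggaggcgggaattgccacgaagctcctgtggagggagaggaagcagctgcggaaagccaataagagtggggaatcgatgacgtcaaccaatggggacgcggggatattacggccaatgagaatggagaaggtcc
SDHA held 4 NRF1 matches and UQCRC1 held 2 on its reverse strand. SDHD held a stretch that matches the NRF1 letters on both strands and 1 ETS match on its reverse strand, and SDHB held 1 ETS match. After the start, outside the printed bases, SDHB and UQCRC1 each held a YY1 match. No match stood in the whole windows of UQCRC2 and ATP5G1.

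Library totals ran from 5.64 to 28.2 M counts (M stands for 1000000, median 20.5), and 3 libraries held under 10 M: replicate 2 of WT 0 h, of KO 0 h and of WT 36 h. The SLAMF6 level in CPM (counts per 1000000 counts of the library, scaled by TMM) was 19.0, 25.1 and 19.4 in the WT and 18.2, 21.0 and 18.6 in the KO libraries at 0 h. At 36 h it was 101, 103 and 112 in WT and 144, 125 and 149 in KO, and at 24 h 65.2, 73.9 and 97.4 in WT and 110, 113 and 147 in KO, without overlap at either time. This gene-level count does not resolve an isoform, so it checks neither the edit nor the labels. All 11 T cell markers on the list averaged at least 10 CPM, their sum running from 3920 to 6420 CPM per library. Other cell types' markers reached that level in 2 of 7 (B cell), 1 of 8 (monocyte), 0 of 7 (adherent lines) and 0 of 5 (erythroid) cases. Their summed levels ran from 20.8 to 50.8, 4.58 to 43.8, 0.301 to 6.49 and 0 to 1.06 CPM. Library titles carry a letter of unstated meaning: A for WT and B for KO from 0 to 24 h, and C for both genotypes at 36 h. The letter therefore cannot be told apart from genotype at 0 to 24 h, nor from time in a comparison of 36 h with 0 h, whereas KO and WT at 36 h share it. A difference between the genotypes in the change from 0 to 36 h takes in the 0 h comparison, and with it the letter.

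In these cells 80 of the 85 members passed the filter on low counts. Of these, 77 averaged from 22.8 to 1020 CPM (median 161), and 3 averaged under 5 CPM: NDUFA4L2, COX6B2 and ATP5L2. The 5 untested members were COX4I2, COX6A2, COX7A1, COX7B2 and COX8C, none with more than 17 counts over the 30 libraries. The highest CPM, not scaled to length, belonged to F1 subunits of ATP synthase: ATP5B had 1110, 938 and 1110 CPM and ATP5A1 had 1090, 965 and 1080 CPM in the WT libraries at 0 h.

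Each pair of tissue isoforms was represented by the widely expressed form. Per kilobase of transcript, COX4I1, a core regulatory subunit of cytochrome c oxidase, averaged 724 CPM, whereas COX4I2, its hypoxia-responsive lung form, had 15 counts in all. COX6A1 averaged 323 CPM per kb against 8 counts in all of its muscle form COX6A2. COX7A2 averaged 451 and its relative COX7A2L 99.2 CPM per kb, against 17 counts in all of the muscle form COX7A1. COX6B1 (415 CPM per kb), COX7B (373) and COX8A (375) stood against 114, 6 and 13 counts in all of COX6B2, COX7B2 and COX8C. NDUFA4 averaged 133 CPM per kb and NDUFA4L2, a hypoxia-induced relative, 2.57. The 3 genes that encode the same mature subunit c of the ATP synthase ring, ATP5G1, ATP5G2 and ATP5G3, all contributed, at 268, 425 and 595 CPM per kb.

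The summed level of the 85 members was lower at 6, 12 and 36 h than at 0 h in WT cells, without overlap. It was 18140, 18178 and 17480 CPM in the WT libraries at 0 h and 15750, 13946 and 14697 CPM at 36 h. Its WT means at 6 and 12 h were 15309 and 15157 CPM. At 24 h the WT libraries, at 14563, 15021 and 20709 CPM, overlapped those at 0 h. In KO cells the sums were 16392, 16123 and 17309 CPM at 0 h and 17040, 15460 and 17180 CPM at 36 h, and the groups overlapped. The KO means were 16608 CPM at 0 h and 14843, 15242 and 15234 CPM at 6, 12 and 24 h, where groups also overlapped with 0 h. Complex I summed to 6302 ± 164 CPM (SD, n = 3) at 0 h and 5083 ± 260 at 36 h in WT, and to 5804 ± 191 and 5746 ± 378 in KO. Complex II went from 660 ± 8.27 to 461 ± 37.3 CPM in WT and from 644 ± 24.0 to 514 ± 35.8 in KO. It was the complex whose sum had the largest log2 difference between 36 h and 0 h in either genotype (-0.52 in WT, -0.32 in KO). The corresponding WT and KO differences were -0.31 and -0.01 for complex I, -0.31 and -0.12 for complex III, -0.20 and 0.08 for complex IV, and -0.24 and 0.04 for complex V. CPM values are shares of a library's RNA, so a lower value need not mean less of that RNA per cell. The words fell and rose below refer to such shares. In these bulk samples of 1 cell line, a change in all cells and a change in some of them cannot be told apart.

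**Figure D1:**
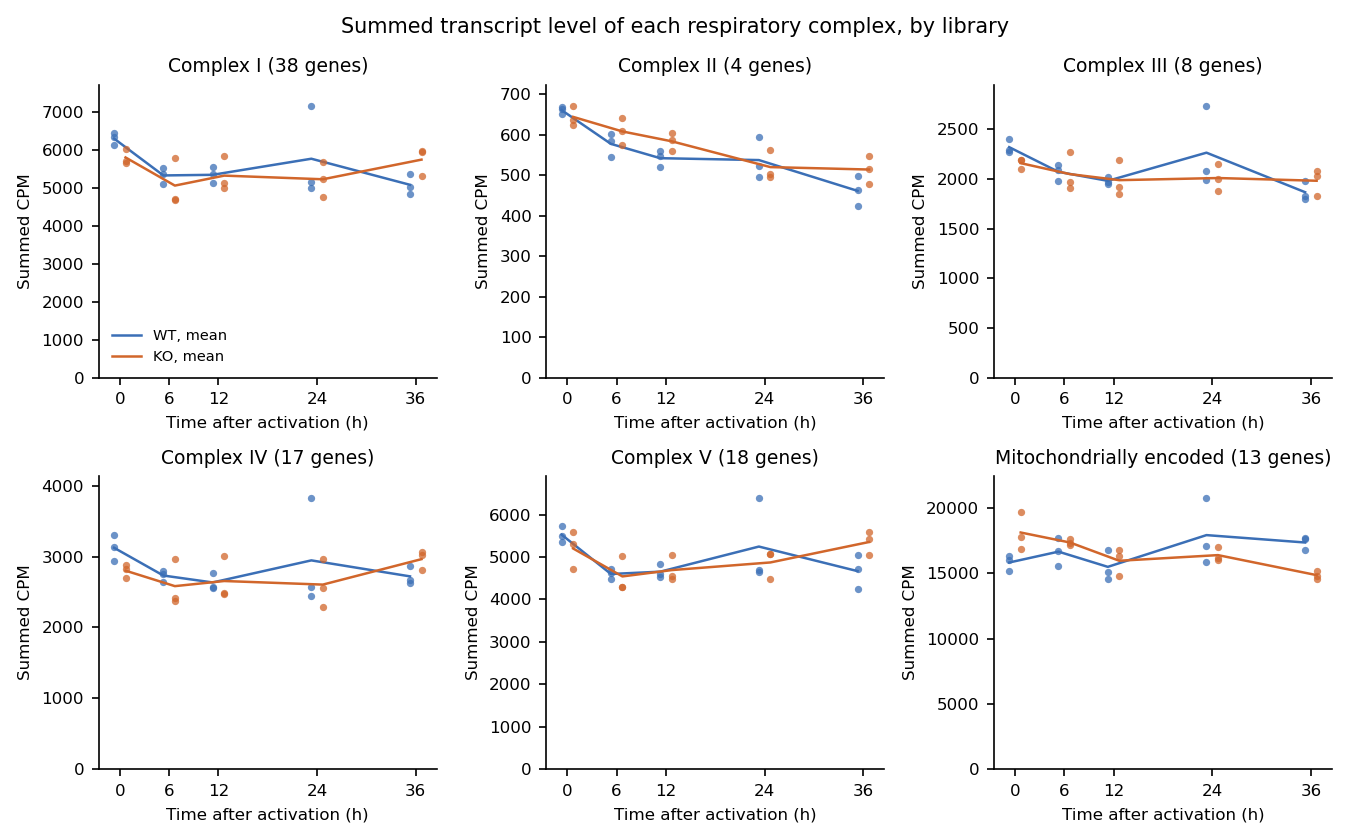
Summed CPM of the members of each complex (y axis, from 0) against time after stimulation in hours (x axis), in WT and KO. Points are libraries and lines join the means of 3. Mean sums of all 5 complexes are lower at 36 h than at 0 h in WT. In KO those of complexes II and III are lower too (514 against 644 and 1982 against 2160 CPM), while those of complexes IV and V are higher (2965 against 2802 and 5352 against 5200 CPM).

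Replicate 3 of WT 24 h stood apart: it summed to 20709 CPM over the members against 14563 and 15021 in its companions. Other genes with a transcript under 1 kb, cytosolic ribosomal protein genes left out, also had a higher summed level in that library, 77.6 against 57.5 and 59.2 in units of 1000 CPM. In the same units cytosolic ribosomal protein genes summed to 84.3 against 51.5 and 53.7, and genes over 3 kb to 297 against 314 and 313. Results at 24 h in WT are given with and without it.

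To ask how WT cells changed on activation, each stimulated time was compared with 0 h, and most subunits that passed the test fell. At 36 h, 42 of the 80 tested members fell and 4 rose, against 19% of all tested genes lower and 20.1% higher. The members' median log2 change was -0.34, beside 0.01 over all genes. Shares of all genes, here and below, are not matched for level. An average of at least 20 CPM was reached by 7524 of the 21554 tested genes and by 77 of the 80 members. At 6 h 18 fell and 1 rose (10.5% and 11.8% of all genes), and at 12 h 28 fell and 1 rose (15.6% and 14.8%), with medians of -0.21 and -0.25. At 24 h 22 fell and 3 rose (17% and 17.3%), with a median of -0.16, and with upper quartile scaling 16 fell and 5 rose. Without replicate 3, 44 fell and 2 rose at 24 h, with a median of -0.37 and 14.8% of all genes lower. At 36 h the fit without the 3 libraries under 10 M counts had 25 lower and 3 higher. Single libraries moved the earlier counts. At 6 h 11 and 12 members were lower without WT 0 h replicates 1 and 3, and 7, 10 and 6 without WT 6 h replicates 1, 2 and 3, with 0 higher in each of these fits. At 12 h 16 and 19 were lower without WT 12 h replicates 2 and 3, and at 24 h 10 and 12 without WT 24 h replicates 1 and 2.

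Transcript length moved with these values. Members are short, with a median transcript of 916 bases. Among genes of at least 20 CPM, the median log2 change at 36 h in WT was -0.34 for 77 members, -0.24 for 472 other genes under 1 kb that are not ribosomal, -0.29 for 82 cytosolic ribosomal protein genes and 0.01 for 3511 genes over 3 kb. With an offset for transcript length in each library, 32 members fell and 9 rose at 36 h in WT, with a median of -0.18. In that fit 21.2% of all genes were lower and 24.1% higher. All 32 were among the 42, and the 10 no longer called were NDUFC1, NDUFS8, COX6A1, NDUFS7, NDUFB3, NDUFS4, NDUFB6, NDUFB8, COX8A and COX5A.

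**Figure D2:**
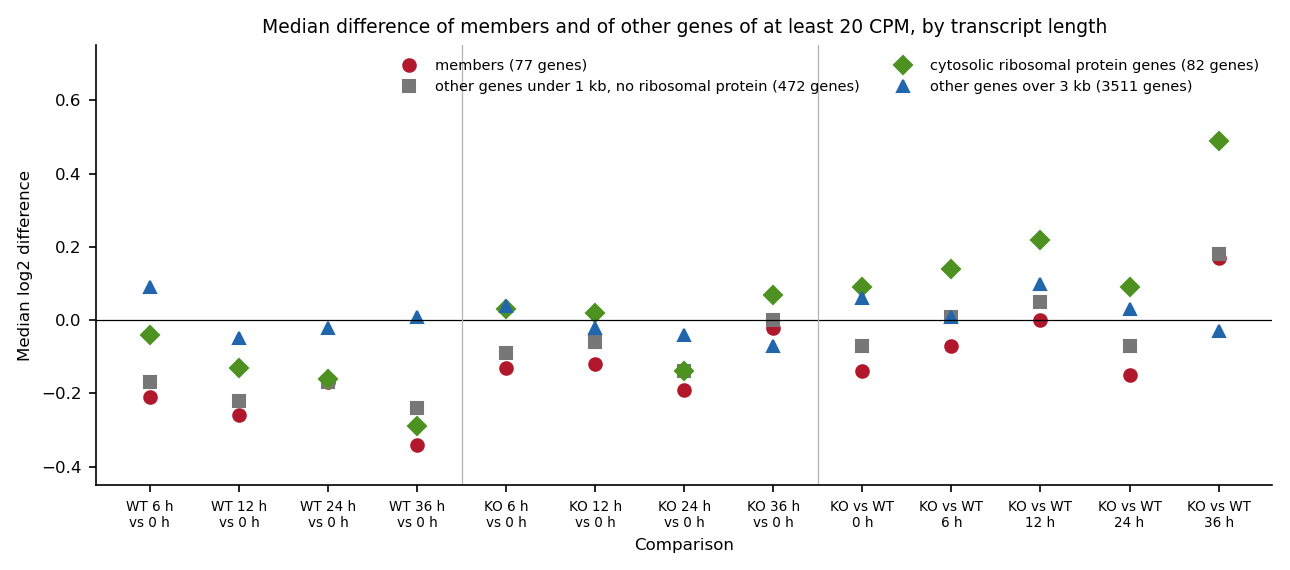
Median log2 difference (y axis) in each comparison (x axis) for the members, for other genes with transcripts under 1 kb that are not ribosomal, for cytosolic ribosomal protein genes and for genes over 3 kb, all of at least 20 CPM. In WT at 36 h the first 3 classes lie at -0.34, -0.24 and -0.29 and the long genes at 0.01; in KO at 36 h the classes lie between -0.07 and 0.07.

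In KO cells the subunits that passed the test at 6, 12 and 24 h were also mostly lower, and at 36 h both directions were present. At 6 h 16 fell and 1 rose (13.2% and 14% of all genes), at 12 h 13 fell and 2 rose (13.7% and 14.1%), and at 24 h 24 fell and 3 rose (16.7% and 16.1%). The shares at 6 and 12 h lie close to those of all genes: the members' medians were -0.13 and -0.13, beside 0.03 and 0.05 over all genes. The 6 h count of lower members was 9 and 8 without KO 0 h replicates 1 and 3, and 7 without KO 6 h replicate 1 or 3. The 12 h count was 7 without KO 0 h replicate 3 and 5 without KO 12 h replicate 2, and the 24 h count was 12 without KO 0 h replicate 3 or KO 24 h replicate 1. Only omissions that lowered the counts are listed here, and the ranges over all libraries are given further below. Replicate 2 of KO 6 h also stood apart, summing to 16683 CPM over the members against 13904 and 13942 in its companions. At 36 h 16 fell and 12 rose (18% and 18.6% of all genes), with a median of -0.02. With the length offset the same 16 and 12 were called at 36 h, together with 7 more in each direction.

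**Figure D3:**
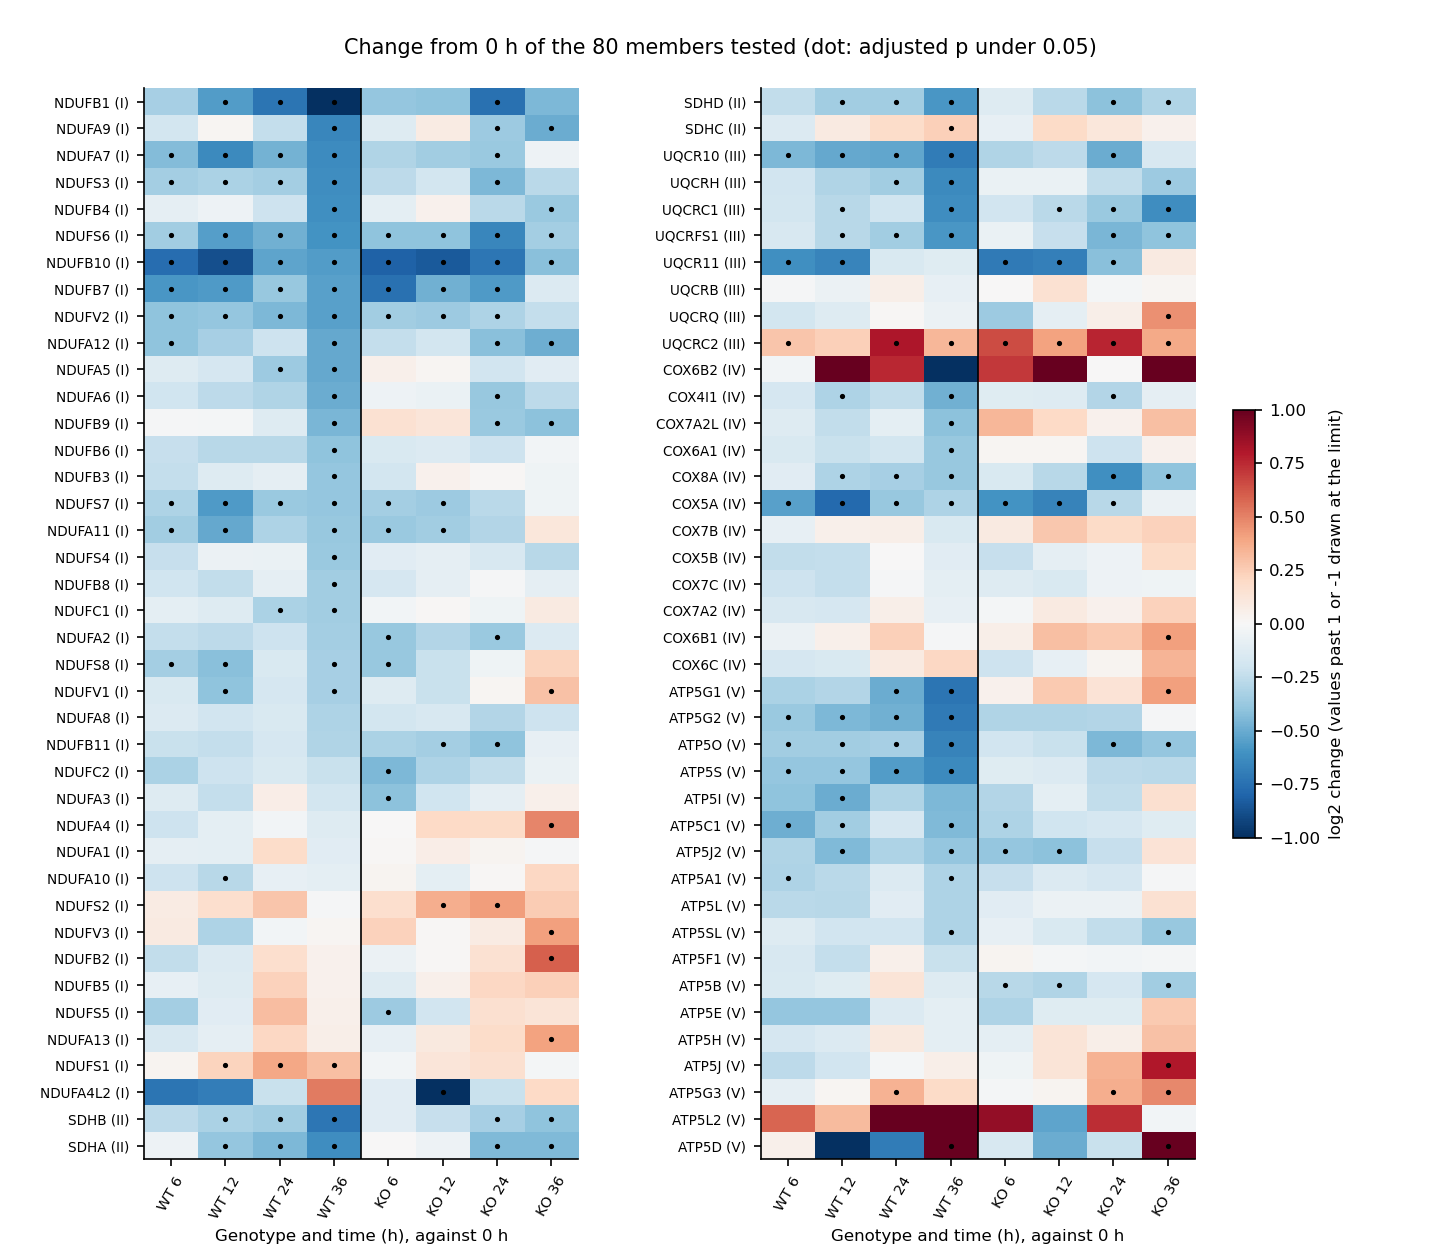
Log2 change from 0 h (colour) of the tested members, by complex, at 6, 12, 24 and 36 h in WT and in KO. Lower values fill most of the WT columns, and the KO column at 36 h holds both directions (16 called lower, 12 called higher).

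12 members fell at all 4 times in WT, and 2 of them, NDUFB10 and NDUFS6, at all 4 times in KO as well. Of all tested genes 6.2% fell at all 4 times in WT, 6.4% in KO and 3.72% in both. At the other end, 15 of the 80 were called at no time in either genotype, the complex IV subunit COX7A2 among them. The share of all genes was 35%, and it is not matched for level. Lower calls shared by both genotypes numbered 10 at 6 h, 10 at 12 h, 15 at 24 h and 15 at 36 h, where 7.15%, 9.85%, 12% and 12.2% of all genes were lower in both. The 15 at 36 h were NDUFA9, NDUFA12, NDUFB4, NDUFB9, NDUFB10, NDUFS6, SDHA, SDHB, SDHD, UQCRC1, UQCRFS1, UQCRH, COX8A, ATP5O and ATP5SL.

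Complex I, the NADH dehydrogenase, had 22 of its 38 members lower and 1 higher at 36 h in WT, and 6 lower and 5 higher in KO. Of all genes 19% were lower and 20.1% higher in WT, and 18% and 18.6% in KO, so the KO counts lie close to or under these shares. NDUFB10, an accessory subunit of the membrane arm, had 205, 252 and 214 CPM in WT at 0 h and 124, 115 and 125 CPM at 12 h. In KO it had 221, 279 and 222 CPM at 0 h and 133, 117 and 152 CPM at 12 h. Neither pair of groups overlapped. Its log2 change at 12 h was -0.88 in WT (adjusted p = 2.35e-07) and -0.84 in KO (adjusted p = 4.78e-07), and by 36 h it was -0.56 and -0.42 (adjusted p = 0.000153 and 0.00326). NDUFB10 was called in each of the 8 activation comparisons, whichever single library was left out. NDUFS6, an accessory subunit of the matrix arm that binds zinc, fell by 0.60 on the log2 scale in WT at 36 h, from 128, 130 and 136 to 90.2, 81.6 and 87.5 CPM (adjusted p = 6.91e-05). In KO its largest fall was at 24 h, by 0.65, to 73.4, 95.9 and 78.3 CPM (adjusted p = 2.9e-05). Its smaller falls in KO at 6, 12 and 36 h were lost without replicate 3 of KO 0 h (adjusted p = 0.0849, 0.0741 and 0.155), and its fall in WT at 6 h without replicate 3 of WT 0 h (0.11) or replicates 2 or 3 of WT 6 h (0.0815 and 0.113).

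NDUFB1 and NDUFS1, also of complex I, are named after their values were seen. NDUFB1, a small membrane-arm subunit, had 68.9, 80.2 and 59.5 CPM in WT at 0 h and 35.4, 34.9 and 32.3 CPM at 36 h, a log2 change of -1.02 ± 0.21 (SE, adjusted p = 0.000135). NDUFS1, which carries iron-sulfur clusters of the matrix arm, was the 1 complex I member higher in WT at 36 h, at 106 CPM before and 131 CPM after, a log2 change of 0.30 (adjusted p = 0.00447). In KO it stood at 113 and 111 CPM. Exons of NDUFS1 overlap those of GCSHP3 on the same strand and of EEF1B2 on the other strand. NDUFA13, a subunit also known as GRIM-19, had the highest CPM of complex I, not scaled to length. It rose in KO from 273, 282 and 286 to 386, 349 and 374 CPM (log2 change 0.40, adjusted p = 0.0115), while in WT its mean went from 318 to 333 CPM with overlapping groups.

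Complex II, succinate dehydrogenase, is also an enzyme of the citric acid cycle, and 3 of its 4 genes fell in both genotypes at 36 h. Of all genes 12.2% were lower in both at that time. SDHA, the flavoprotein that oxidises succinate, had 157, 138 and 165 CPM at 0 h and 112, 89.2 and 99.6 CPM at 36 h in WT. In KO its values were 147, 128 and 154 CPM and then 107, 99.8 and 110 CPM. Neither pair of groups overlapped, and the log2 changes were -0.62 ± 0.10 in WT (SE, adjusted p = 8.19e-06) and -0.44 ± 0.10 in KO (adjusted p = 0.000715). SDHB, the iron-sulfur subunit, went from 265, 285 and 282 to 186, 153 and 166 CPM in WT, a log2 change of -0.72 ± 0.10 (adjusted p = 4.72e-07). In KO it went from 262, 295 and 264 to 210, 186 and 224 CPM, a log2 change of -0.40 (adjusted p = 0.00171), again without overlap. With the length offset the WT changes of SDHA and SDHB at 36 h were -0.57 and -0.55.

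SDHC and SDHD anchor succinate dehydrogenase in the membrane and hold its coenzyme Q site, and their values moved differently. SDHD had 150, 168 and 139 CPM at 0 h and 107, 94.9 and 104 CPM at 36 h in WT, a log2 change of -0.58 ± 0.11 (SE, adjusted p = 7.94e-05). In KO the change of SDHD at 36 h was -0.30 (adjusted p = 0.0364), and it missed the threshold without replicate 2 of KO 0 h (-0.18, adjusted p = 0.271), without replicate 1 of KO 36 h (-0.28, adjusted p = 0.0947) and without replicate 2 of KO 36 h (-0.22, adjusted p = 0.185). SDHC rose slightly in WT, from 78.9, 74.7 and 76.1 to 93.7, 85.6 and 92.8 CPM (log2 change 0.24, adjusted p = 0.0412). With the length offset that change was -0.01 (adjusted p = 0.969), and the call was also lost without replicate 2 of WT 0 h (0.24, adjusted p = 0.0862), replicate 3 of WT 0 h (0.26, 0.0769), replicate 1 of WT 36 h (0.22, 0.127) or replicate 3 of WT 36 h (0.23, 0.117). In KO, SDHC had 80.4, 76.1 and 83.5 CPM at 0 h and 81.2, 84.1 and 81.7 CPM at 36 h, and the groups overlapped. Exons of 47 of the 85 members overlap another annotated gene, and those of 24 members overlap one on the same strand. Exons of SDHC and SDHD overlap those of CFAP126 and TIMM8B on the other strand, and SDHD also overlaps AP002884.3 on its own strand. Counting by strand is not given in the sources used here.

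Complex III, cytochrome bc1, held members that went opposite ways, its 2 core proteins among them. Core protein UQCRC1 had 636, 693 and 714 CPM in WT at 0 h and 476, 431 and 424 CPM at 36 h. In KO it had 646, 726 and 653 CPM and then 465, 410 and 446 CPM. The log2 change was -0.62 ± 0.08 in each genotype (SE, adjusted p = 2.94e-07 in WT and 3.11e-07 in KO), with no overlap between the groups.

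UQCRC2, the partner of UQCRC1 in the same core, was higher in both genotypes at 6, 24 and 36 h. In WT it had 294, 284 and 295 CPM at 0 h, 469, 471 and 590 CPM at 24 h, and 391, 325 and 378 CPM at 36 h. In KO it had 289, 254 and 306 CPM at 0 h, 466, 499 and 474 CPM at 24 h, and 377, 335 and 391 CPM at 36 h. Every stimulated library at these 2 times lay above the unstimulated ones of its genotype. The log2 change at 24 h was 0.81 ± 0.10 in WT (SE, adjusted p = 5.02e-08) and 0.76 in KO (adjusted p = 1.66e-07), and at 36 h it was 0.33 (adjusted p = 0.0086) and 0.38 (adjusted p = 0.00279). The WT call at 36 h missed the threshold without replicate 1 of WT 36 h (0.27, adjusted p = 0.0559). At 6 h the change was 0.65 in KO (adjusted p = 4.42e-06) and 0.28 in WT (adjusted p = 0.0412), and the latter missed it without any one of the 6 libraries compared (adjusted p from 0.0786 to 0.189). UQCRH, the hinge subunit that contacts cytochrome c, fell in WT from 314, 293 and 296 to 200, 179 and 200 CPM at 36 h (log2 change -0.64, adjusted p = 3.79e-05).

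**Figure D4:**
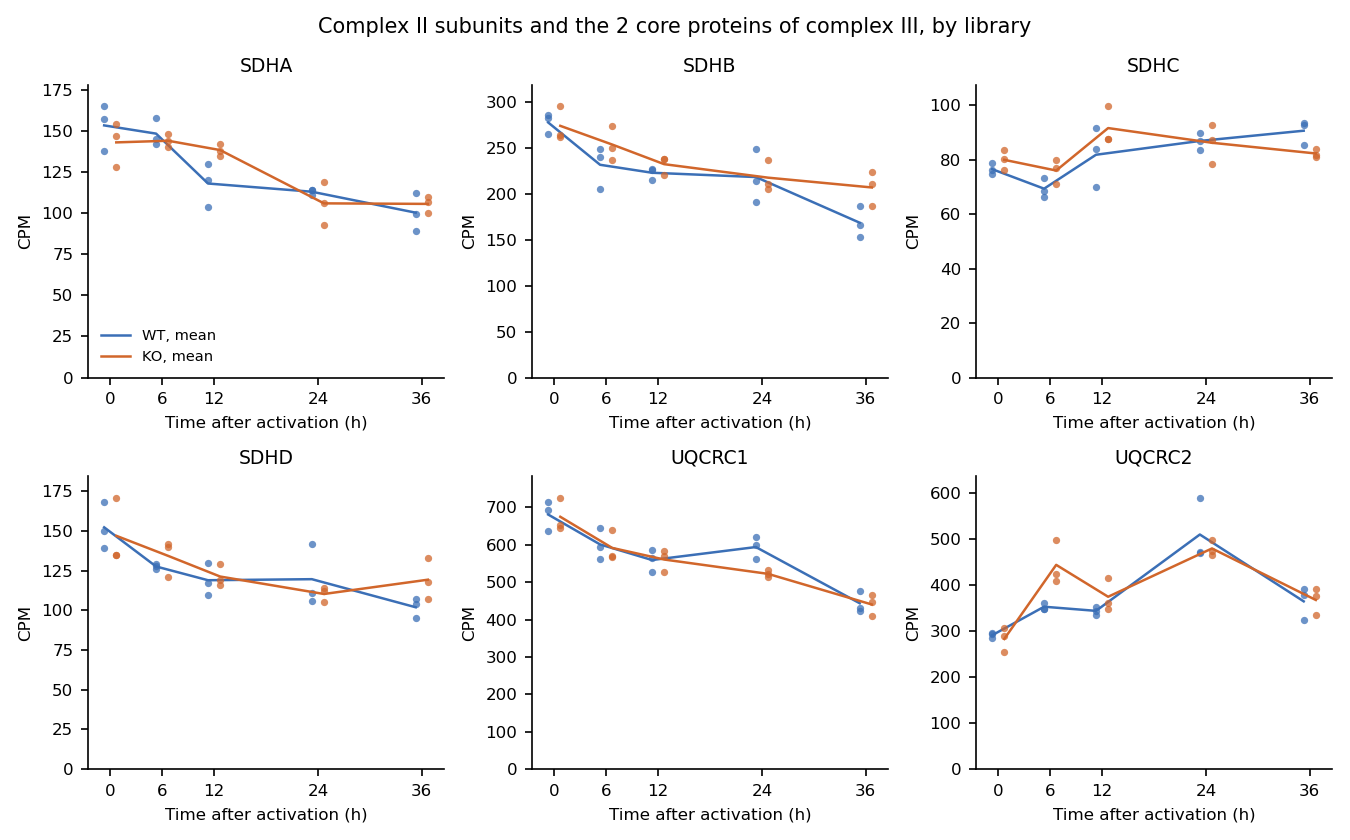
CPM (y axis, from 0) of SDHA, SDHB, SDHC, SDHD, UQCRC1 and UQCRC2 against time after stimulation in hours (x axis), in WT and KO. Points are libraries and lines join the means of 3. SDHA, SDHB, SDHD and UQCRC1 lie lower at 36 h than at 0 h in both genotypes, UQCRC2 peaks at 24 h in both (means of 510 CPM in WT and 480 CPM in KO), and SDHC stays between 66.2 and 99.7 CPM.

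Complex IV, cytochrome c oxidase, had 5 of its 12 tested members lower and 0 higher in WT at 36 h, and 1 lower and 1 higher in KO. The shares of all genes lower and higher were 19% and 20.1% in WT and 18% and 18.6% in KO, and the KO counts lie under them. COX4I1 went from 619, 617 and 596 to 477, 415 and 419 CPM in WT at 36 h (log2 change -0.48, adjusted p = 0.000636). Its exons overlap those of EMC8 on the other strand. COX5A, a matrix-side subunit, fell earlier: from 309, 332 and 299 CPM to 194, 170 and 185 CPM at 12 h in WT, and from 268, 276 and 286 to 173, 169 and 180 CPM in KO. These changes were -0.78 (adjusted p = 3.22e-07) and -0.67 (adjusted p = 3.7e-06) on the log2 scale, with no overlap. By 36 h COX5A was at 265, 250 and 280 CPM in KO, overlapping its unstimulated range. COX7A2 had 376, 407 and 348 CPM at 0 h and 377, 355 and 335 CPM at 36 h in WT, with overlapping groups.

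Complex V had 8 of 18 members lower and 1 higher at 36 h in WT, and 3 lower and 4 higher in KO. The shares of all genes lower and higher were 19% and 20.1% in WT and 18% and 18.6% in KO, and the KO counts lie close to them. ATP5S and ATP5SL, not core subunits, are among the 8 lower in WT, and ATP5SL is among the 3 lower in KO. Of its abundant F1 subunits, ATP5B was called at no time in WT and fell in KO at 36 h, from 1250, 1020 and 1310 to 908, 954 and 938 CPM (log2 change -0.35, adjusted p = 0.00372). Without replicate 3 of KO 0 h that value was -0.25 (adjusted p = 0.0908). ATP5D, the small F1 subunit delta, spread widely between replicates: it had 12.0, 22.3 and 28.7 CPM at 0 h and 67.2, 90.3 and 120.0 CPM at 36 h in WT, and 23.2, 26.4 and 62.3 CPM and then 132, 150 and 134 CPM in KO. The groups did not overlap in either genotype, and the log2 changes were 2.15 ± 0.48 (SE, adjusted p = 0.000416) and 1.87 ± 0.46 (adjusted p = 0.00145).

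The genes for subunit c of the ATP synthase ring did not move together. In WT at 36 h ATP5G1 fell from 206, 194 and 194 to 129, 112 and 118 CPM (log2 change -0.73 ± 0.14, SE, adjusted p = 4e-05), and ATP5G2 from 503, 455 and 484 to 323, 258 and 299 CPM (-0.71, adjusted p = 2.54e-05). ATP5G3 had 463, 447 and 461 CPM at 0 h and 558, 484 and 526 CPM at 36 h in WT, without overlap and with an adjusted p of 0.114. In KO, ATP5G3 rose from 454, 417 and 475 to 648, 598 and 636 CPM (0.48, adjusted p = 0.000119). ATP5G1 also rose in KO, from 153, 123 and 159 to 197, 175 and 208 CPM (0.41, adjusted p = 0.0153), a call lost without replicate 2 of KO 0 h (0.31, adjusted p = 0.114) or replicate 3 of KO 36 h (0.36, adjusted p = 0.0785). ATP5G2 in KO had 443, 378 and 459 CPM and then 431, 408 and 430 CPM, with overlapping groups.

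Whether the genotypes differed was tested at each time by edgeR. Between 0 and 24 h few members did, and their share lay under that of all genes. At 0 h ATP5G1 alone was called, lower in KO by 0.44 ± 0.13 on the log2 scale (SE, adjusted p = 0.0412), and 0 members were higher (3.11% of all genes lower, 2.96% higher). The call at 0 h was lost without any one of the WT 0 h replicates 1, 2 or 3 (adjusted p = 0.173, 0.0817 and 0.0883), without KO 0 h replicate 1 (0.0819) and without KO 0 h replicate 2 (0.206). At 6 h UQCRC2 alone was called, higher in KO by 0.33 (adjusted p = 0.0284, 5.21% of all genes higher and 4.76% lower). It was lost without WT 6 h replicate 1, 2 or 3 (adjusted p = 0.0937, 0.0944 and 0.065) or KO 6 h replicate 2 (0.198), and 2 members were higher without KO 6 h replicate 1. At 12 h 0 of 80 were called in either direction (6.05% of all genes higher, 5.52% lower), with 5 at an unadjusted p under 0.05 and 1 called by DESeq2; edgeR called 2 higher without KO 12 h replicate 1 and 1 lower without KO 12 h replicate 3. At 24 h 2 were lower in KO, NDUFS5 and COX8A, and 0 higher (4.76% and 4.97% of all genes). Both rested on WT 24 h replicate 3: without it the differences were -0.18 (adjusted p = 0.44) and -0.15 (adjusted p = 0.508), and 2 members were called higher in KO. Without KO 24 h replicates 1, 2 and 3 the 24 h fit had 0 called, 4 lower and 1 higher.

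Averaged over the 5 times, 3 members were higher and 5 lower in KO, where 15.3% of all genes were higher and 15.3% lower. The largest difference among the 8 called was that of ATP5D, 0.98 ± 0.21 (SE, adjusted p = 0.000514). COX7A2L was higher by 0.24 (adjusted p = 0.00214) and NDUFS8 by 0.17 (adjusted p = 0.00772). NDUFS5, an accessory complex I subunit at the intermembrane side, was lower by 0.32 (log2 difference -0.32, adjusted p = 6.97e-05), and by 0.26 (-0.26) without WT 24 h replicate 3. The average had 3 higher and 2 lower without KO 12 h replicate 2 or KO 36 h replicate 2. Without WT 24 h replicate 3 it had 11 higher and 1 lower, and with the length offset 3 were higher and 29 lower. With upper quartile scaling 2 were higher and 20 lower, so the direction of the average depended on these choices.

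At 36 h, where both genotypes carry the same title letter, 8 members were higher in KO and 0 lower, against 6.95% of all genes higher and 6.52% lower. Of 80 members, 8 lie close to the background share of higher genes, and 5 were left without WT 36 h replicate 2 or 3 or KO 36 h replicate 1. The members' median difference was 0.17. Medians at 36 h moved with transcript length here too: 0.17 for the 77 members of at least 20 CPM, 0.18 for other genes under 1 kb that are not ribosomal, 0.49 for cytosolic ribosomal protein genes and -0.03 for genes over 3 kb. With the length offset 7 members were higher and 6 lower at 36 h, with a median of 0.02.

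The 2 complex I core subunits among the 8, NDUFV1 and NDUFS8, did not overlap between the genotypes. NDUFV1, which holds the NADH and flavin site, had 245, 196 and 220 CPM in WT and 326, 317 and 310 CPM in KO at 36 h, a log2 difference of 0.53 ± 0.10 (SE, adjusted p = 0.000334). NDUFS8, an iron-sulfur subunit near the coenzyme Q site, had 169, 165 and 154 CPM in WT and 251, 228 and 238 CPM in KO, a difference of 0.56 ± 0.11 (SE, adjusted p = 0.000391). COX7A2L, the supercomplex factor, had 94.6, 73.3 and 88.2 CPM in WT and 132, 117 and 140 CPM in KO, a difference of 0.60 ± 0.13 (SE, adjusted p = 0.00159). These differences remained past the threshold whichever single library was left out and with the length offset.

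With upper quartile scaling 6 members were called higher and 1 lower in KO at 36 h. ATP5G1 had the largest difference among the 8 called, with 129, 112 and 118 CPM in WT and 197, 175 and 208 CPM in KO (0.69 ± 0.13, SE, adjusted p = 0.000425). ATP5G2 was higher in KO by 0.53 ± 0.13 (SE, adjusted p = 0.00412), at 323, 258 and 299 against 431, 408 and 430 CPM. The length offset left ATP5G1 higher by 0.47 (adjusted p = 0.000174). SDHB was higher in KO by 0.30 (adjusted p = 0.0471), and was no longer called without WT 36 h replicate 2 (0.24, adjusted p = 0.221) or 3 (0.29, 0.136), without KO 36 h replicate 1 (0.29, 0.123) or 3 (0.23, 0.225), or with the length offset (0.16, 0.147). NDUFA11 and ATP5J, named after their values were seen, completed the 8. NDUFA11, a membrane-arm subunit, was higher by 0.45 (adjusted p = 0.0158), and was lost without WT 36 h replicates 2 or 3 (adjusted p = 0.0529 and 0.0668) or KO 36 h replicate 1 (0.0859). ATP5J, a peripheral stalk subunit, was higher by 0.48 (adjusted p = 0.0422). It was lost with the length offset (0.27, adjusted p = 0.083), without any one WT 36 h replicate (adjusted p from 0.0908 to 0.118) and without KO 36 h replicate 1 (0.105) or 3 (0.178). Its exons overlap those of GABPA and JAM2 on the other strand. Those of NDUFV1 overlap C11orf72 on the other strand and AP003385.3 on the same strand.

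The change from 0 h was then compared between the genotypes by the interaction term of the same edgeR fit. At 36 h it was positive for 6 members and negative for 0, against 4.71% and 4.62% of all genes, with 28 members at an unadjusted p under 0.05. The count was 20 in fits of only the groups compared, 12 with no filter, 12 with DESeq2 and 2 without the libraries under 10 M counts. Shares of all genes called in those fits are not given here, so these counts cannot be set against 4.71% and 4.62%. The members' median was 0.29, beside 0.01 over all genes. At 36 h the term also holds the genotype difference at 0 h, where letter A goes with WT and B with KO. A difference between the letters therefore cannot be told apart from a genotype difference in it. Among the 6 called it was largest for ATP5G1 (1.14 ± 0.19, SE, adjusted p = 0.000158), whose change was -0.73 in WT and 0.41 in KO. That of NDUFV1 was 0.62 ± 0.14 (SE, adjusted p = 0.00461), with changes of -0.33 and 0.29. ATP5G2 differed by 0.70 (adjusted p = 0.0112). ATP5J differed by 0.74 (adjusted p = 0.0349), a call lost without WT 0 h replicates 1 or 2 (adjusted p = 0.0522 and 0.115), without any one WT 36 h replicate (0.056 to 0.0727), without KO 0 h replicates 1 or 3 (0.0812 and 0.0561) and without KO 36 h replicates 1 or 3 (0.068 and 0.0942). COX7A2L differed by 0.71 (adjusted p = 0.0124, and 0.64, 0.0506, without WT 0 h replicate 1). NDUFS8 differed by 0.55 (adjusted p = 0.0179), a call lost without WT 0 h replicate 2 (0.47, 0.0612), WT 36 h replicate 3 (0.51, 0.056) or KO 36 h replicate 1 (0.52, 0.0507) and with the length offset (0.32, 0.082). At 6, 12 and 24 h edgeR called 0 members in either direction (1.64%, 1.42% and 1.84% of all genes higher, 1.37%, 0.65% and 1.7% lower), with 2, 3 and 2 at an unadjusted p under 0.05; DESeq2 called 0, 0 and 1. At 24 h edgeR called 4 without WT 24 h replicate 3 and 1 without KO 0 h replicate 3 or KO 24 h replicate 1. Over the 4 times jointly 5 members were called (9.84% of all genes), 9 without WT 24 h replicate 3, 1 without WT 36 h replicate 2 or 3 or KO 36 h replicate 1, and 2 or 3 without most other libraries.

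**Figure D5:**
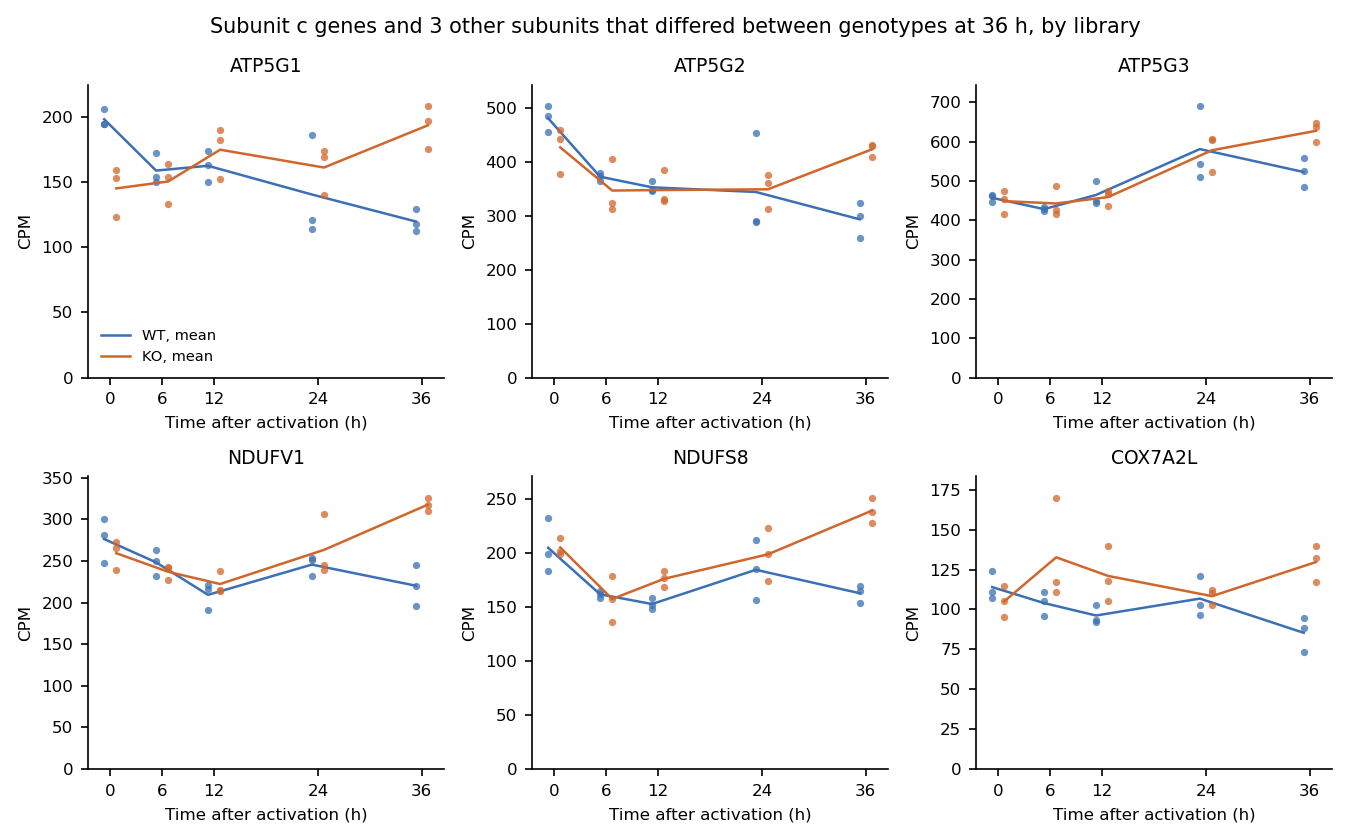
CPM (y axis, from 0) of ATP5G1, ATP5G2, ATP5G3, NDUFV1, NDUFS8 and COX7A2L against time after stimulation in hours (x axis), in WT and KO. Points are libraries and lines join the means of 3. At 36 h the WT libraries of ATP5G1 (112 to 129 CPM) and ATP5G2 (258 to 323 CPM) lie below the KO libraries (175 to 208 and 408 to 431 CPM).

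The 13 messenger RNAs encoded by the mitochondrial genome, which complete complexes I, III, IV and V, are transcribed apart from the nuclear members and are set beside them here. Their sum was 15800 CPM at 0 h and 17300 CPM at 36 h in WT, and 18100 and 14900 CPM in KO. At 36 h 7 rose and 2 fell in WT (median log2 change 0.29), while 0 rose and 6 fell in KO (median -0.30). At 0 h 5 were already higher in KO and 0 lower (2.96% and 3.11% of all genes), and there letter and genotype cannot be told apart. The interaction was negative for 7 and positive for 0, and it includes this 0 h difference. MT-ND5, a proton-pumping subunit of complex I, went from 784, 771 and 813 to 1100, 1250 and 1330 CPM in WT and from 1230, 1090 and 1420 to 922, 962 and 900 CPM in KO. Its groups did not overlap in either genotype, and the difference between the changes was -1.06 ± 0.15 (SE, adjusted p = 8.28e-06).

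Assembly factors, which build the complexes without staying in them, were tested as a list of 49 genes. At 36 h 9 rose and 20 fell in WT, and 13 rose and 13 fell in KO, with an interaction positive for 8 and negative for 1. The shares of all genes higher and lower at 36 h were 20.1% and 19% in WT, 18.6% and 18% in KO, and 4.71% and 4.62% for the interaction, and they stand beside the counts of the other lists as well. BCS1L, which inserts the Rieske iron-sulfur protein into complex III, fell in WT from 82.0, 74.2 and 80.7 to 36.5, 29.5 and 31.4 CPM (log2 change -1.28, adjusted p = 1.54e-09). In KO it had 70.3, 69.1 and 64.4 CPM and then 52.6, 48.7 and 54.3 CPM, and the interaction was 0.89 (adjusted p = 0.00214). TIMMDC1, a complex I assembly factor, rose in KO from 83.7, 90.4 and 87.4 to 209, 188 and 229 CPM (log2 change 1.26, adjusted p = 7.52e-10). In WT it had 105, 97.4 and 97.5 CPM and then 126, 117 and 123 CPM, with an adjusted p of 0.071, and the interaction was 0.97 (adjusted p = 0.000596). ECSIT, another complex I assembly factor, fell by similar amounts in WT and KO (log2 changes -0.94 and -1.05, adjusted p = 4.01e-08 and 3.48e-09).

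Of 9 subunits and electron carriers whose symbols fall outside the rule, 5 fell and 0 rose at 36 h in WT, and 2 fell and 3 rose in KO. Cytochrome c itself, CYCS, fell in WT from 312, 324 and 275 to 175, 164 and 175 CPM (log2 change -0.82, adjusted p = 1.31e-06). In KO it had 237, 276 and 265 CPM at 0 h and 205, 168 and 221 CPM at 36 h, also lower and without overlap. Among 20 regulators of mitochondrial transcription and biogenesis, 11 fell and 3 rose in WT at 36 h, and 8 fell and 5 rose in KO. NRF1, the factor whose motif was searched above, fell from 40.9, 47.1 and 41.3 to 18, 20 and 25 CPM in WT (log2 change -1.03, adjusted p = 1.29e-07). In KO it fell from 38.8, 42.6 and 42.0 to 16.4, 16.8 and 19.7 CPM (-1.21, adjusted p = 4.89e-09). GABPB2, a subunit of the ETS-family factor GABP, fell by 1.64 and 1.71 on the log2 scale (adjusted p = 2.33e-13 and 4.45e-14). Whether these factors have any part in the members' values was not tested.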

How the data were processed

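RNA from 30 Jurkat libraries was sequenced. Tools credited, without versions, in the submitters' processing notes are STAR, cutadapt and DESeq2, and the builds are hg19 and GRCh37. Counting program, annotation and strand setting were not given in the sources used here. The authors deposited expected counts per gene symbol and library, not normalized. Of the values, 0.177% (195 symbols, 0 members) were not whole and were rounded. Members and gene lists were chosen with earlier results of these data known.

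In R 4.3.3, edgeR 4.0.16 was fitted to all 30 libraries with 10 group means, TMM scaling and filterByExpr (minimum count 10), which kept 21554 symbols. Quasi-likelihood tests gave log2 changes, and p-values were adjusted by Benjamini-Hochberg over all genes tested. Calls needed an adjusted p below 0.05. The fit was tested on simulated data. CPM are scaled by TMM. Lengths and overlaps came from GENCODE 29, which held all 85 members (17 under another symbol).

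Named by rule were the SDH genes, the 2 members of each complex with the highest CPM, the 5 members with the smallest adjusted p in each family of comparisons, and the isoform groups. From every other list the rule gave up to 3 genes with the smallest adjusted p per family. Only some of these are described, and they were picked without a rule. Left out were, among others, COX10, COX20 and MT-CO3. Their WT means were 49.0, 81.2 and 935 CPM at 0 h and 88.0, 144 and 752 CPM at 36 h. Alternatives were DESeq2 1.42.0, upper quartile scaling, no filter, only the groups compared, libraries left out, the title number as a block and, chosen after seeing the data, a length offset: a spline with 5 degrees of freedom of each library's deviations on log length, fitted on 7276 symbols above 20 CPM. Lengths were known for 80.6% of tested symbols and for all 80 tested members.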

Additional observations from a re-analysis of the deposited data

Results flagged for a closer look

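The change between 0 and 36 h differed between WT and KO, by the edgeR interaction term (log2 change in KO minus that in WT), for 6 members. The values were 1.14 for ATP5G1, 0.74 for ATP5J, 0.71 for COX7A2L, 0.70 for ATP5G2, 0.62 for NDUFV1 and 0.55 for NDUFS8. All 6 were positive, and 4.71% of all tested genes were positive by the same test. The term includes the genotype difference at 0 h, where the title letters differ between WT and KO. Letter and genotype therefore cannot be told apart in it. The number called was 20 in fits of only the groups compared, 12 with no filter, 12 with DESeq2 and 2 without the libraries under 10 M counts. These numbers cannot be set against 4.71%, which belongs to the reported fit. Of the 6, COX7A2L, ATP5G2, ATP5J, ATP5G1 and NDUFV1 were also called with the offset for transcript length, and ATP5G1, ATP5G2 and NDUFV1 whichever single library was left out.

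Over the 4 stimulated times jointly, the adjusted p was 0.0014 for ATP5G1, 0.0158 for NDUFV1, 0.0393 for NDUFS8, 0.0442 for ATP5G2 and 0.0464 for COX7A2L. These 5 of 80 stand against 9.84% of all tested genes.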

How the results depend on the processing

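Counts of called members moved by over 1.5 times as follows, with the reported count in brackets. Without the libraries under 10 M counts, 11 were called at 6 h (19) and 28 at 36 h (46) in WT, 0 for KO against WT at 0 h (1), 1 at 24 h (2) and 5 at 36 h (8), 2 for the interaction at 36 h (6) and 1 jointly (5). Fits of only the groups compared called 42 at 6 h (19) and 14 at 24 h (25) in WT, and for KO against WT 4, 3, 2, 0 and 21 at 0, 6, 12, 24 and 36 h (1, 1, 0, 2 and 8), and 20 for the interaction at 36 h (6). With no filter, 16 were called at 24 h in WT (25), 2, 2 and 1 for KO against WT at 0, 6 and 12 h, 1 and 12 for the interaction at 24 and 36 h (0 and 6), and 8 jointly (5). Upper quartile scaling gave 0, 1 and 4 for KO against WT at 6, 12 and 24 h, 22 for the average (8) and 1 for the interaction at 24 h. DESeq2 gave 3, 1 and 4 for KO against WT at 6, 12 and 24 h, 15 for the average, and 1 and 12 for the interaction at 24 and 36 h. The length offset gave 27 at 12 h in KO (15), 3, 9, 2, 7 and 13 for KO against WT at 0 to 36 h, 32 for the average, and 1 and 1 for the interaction at 12 and 24 h. The cause of these shifts was not tested. Shares of all genes called in these fits are not given here, so the counts cannot be set against the shares of the reported fit. The summed level at 36 h over 0 h in WT was, on the log2 scale, -0.21 for complex I (-0.31) and -0.22 for complex III (-0.31) from total counts with no factor, and -0.65 for complex II (-0.52) per kb of length.

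Title numbers were not used as pairs in the reported fit, and whether they pair the libraries cannot be settled from these values. Of 12 same-numbered pairs of WT and KO libraries, 1 correlated over 0.1 (r from -0.015 to 0.126). Yet 9 of 12 WT libraries correlated best with their own number. With the number as a replicate block, 2, 2 and 5 members were called for KO against WT at 0, 12 and 24 h, 18 for the average, 1, 1 and 1 for the interaction at 6, 12 and 24 h, and 1 jointly.

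Leaving out each library in turn, the number called ran from 6 to 13, 16 to 30, 15 to 46 and 32 to 43 at 6, 12, 24 and 36 h in WT (19, 29, 25 and 46), and from 9 to 22, 6 to 18, 15 to 28 and 21 to 24 in KO (17, 15, 27 and 28). For KO against WT it ran from 0 to 1, 0 to 2, 0 to 2, 0 to 4 and 5 to 8 at 0 to 36 h, and from 5 to 12 for the average. For the interaction it was 0 at 6 and 12 h, ran from 0 to 4 at 24 h and 4 to 6 at 36 h, and from 1 to 9 jointly.

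Of 217 named gene and comparison pairs, 131 stayed called whichever library was left out. Those no longer called numbered 7 with DESeq2, 21 with upper quartile scaling, 34 with no filter, 54 without the libraries under 10 M counts and 15 with the length offset, which alone turned a sign: SDHC in WT at 36 h, at -0.01. Depth limits the 5 untested isoforms, whose levels were not detectable beyond a few counts.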

Other observations

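Genes of the citric acid cycle, which supplies complexes I and II with electrons, were called in both directions at 36 h: 5 of 19 rose and 6 fell in WT, and 7 rose and 5 fell in KO. Of all genes 20.1% rose and 19% fell in WT, and 18.6% and 18% in KO. PDHA1, the catalytic subunit of pyruvate dehydrogenase, rose from 180.0, 149 and 172 to 477, 363 and 410.0 CPM in WT (log2 change 1.32, adjusted p = 3.61e-10, edgeR) and from 162, 115 and 151 to 598, 535 and 628 CPM in KO (2.04, adjusted p = 1.56e-14). The change was larger in KO by 0.72 (adjusted p = 0.00991), a difference that missed the threshold without the libraries under 10 M counts (0.57, adjusted p = 0.0888). IDH2, the mitochondrial NADP-dependent isocitrate dehydrogenase, fell in both (-1.12 in WT and -1.40 in KO, adjusted p = 3.87e-10 and 2.3e-12).

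Among 16 genes of coenzyme Q synthesis and electron entry, 1 rose and 4 fell in WT at 36 h, and 6 rose and 2 fell in KO. Of all genes 20.1% rose and 19% fell in WT, and 18.6% and 18% in KO. COQ3, a methyltransferase of coenzyme Q synthesis, fell from 38.8, 37.0 and 42.2 to 13, 6.78 and 7.59 CPM in WT (log2 change -2.08, adjusted p = 2.01e-11, edgeR). In KO it fell from 30.4, 35.6 and 28 to 11, 13.1 and 14.7 CPM (-1.26, adjusted p = 4.4e-07).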
